A study of Mus musculus with 8 samples.

Results

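Control mouse embryonic fibroblasts (MEFs), the cells that carried an empty vector, were described here gene by gene in 4 of the 8 libraries of the series. The members were the 4 libraries labelled EV, taken by their labels, and their baseline transcriptome was read as the level and rank of each of 48527 genes. Of the 4 libraries, 2 carried an empty vector encoding GFP (EV GFP, replicates 1 and 2) and 2 an empty vector encoding mCherry (EV mCherry, replicates 1 and 2). In all 4, per the labels, lentivirus delivered the vector, the medium held doxycycline at 1 ug/mL, the cells were sorted on the fluorescent reporter, and RNA extracted with Trizol went into a stranded mRNA kit. The 4 libraries with a YAP vector entered no value below. The labels give no strain, embryo age, passage or promoter, and do not say whether the replicates came from separate cultures, so the p-values below reflect how far these libraries differ from each other, a spread that may be technical only. All of the cells had been transduced, grown in doxycycline and sorted, and no untreated MEFs are described.

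MEFs are grown from dissociated embryos and are a mixed culture of connective tissue cells. Fibroblasts build the extracellular matrix: they secrete fibrillar collagens, fibronectin and proteoglycans, and they secrete or carry the enzymes that cross-link and cut them. They read their surroundings through integrins, growth factor receptors and cytokine receptors, and in culture they assemble actin stress fibres. Fibroblasts also keep a record of their place in the body in the HOX genes they express.

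Levels are FPKM, fragments per kilobase of transcript scaled to the mapped fragments of a library, a unit that divides by transcript length. Levels of different genes can be set side by side, but least safely for very short features. There each fragment adds more FPKM, so a share of the FPKM sum is not a share of fragments. Values in all 4 libraries are given in the order EV GFP replicate 1, EV GFP replicate 2, EV mCherry replicate 1 and EV mCherry replicate 2, and means are ± SD over these 4 libraries (n = 4). A gene is called expressed at 1 FPKM or more in all 4 libraries. By that measure 12062 genes were expressed, of which 10434 were protein coding, 1413 were pseudogenes and 67 were lincRNA genes. Of the 21661 protein-coding genes in the table, 7005 were listed at 0 in all 4 libraries, 5774 reached 10 FPKM in all 4, 596 reached 100 FPKM and 27 reached 1000 FPKM. Each library held between 13040 and 13144 genes at 1 FPKM or more. Total reads per library are not stated in the sources used here. The spacing of the lowest values gave the relative depth: 1 fragment was worth 1.795 times as much FPKM in EV GFP replicate 2 as in EV GFP replicate 1, 1.584 times in EV mCherry replicate 1 and 1.103 times in EV mCherry replicate 2. The libraries thus held 55.7%, 63.1% and 90.7% of the depth of EV GFP replicate 1, and the order of depth followed the order of genes above 0, which were 17480, 16554, 16782 and 17392.

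Pseudogenes stood at the top of the table. Of the 10 highest genes of any kind, 8 were annotated as pseudogenes, and of the 70 highest, 37 were. Gm3788, a processed pseudogene of 136 bases on chromosome 3 (GRCm38, chr3:86672033-86672168, minus strand), was listed at 281542, 268926, 99336 and 135102 FPKM. It took 27.6%, 29.1%, 13.5% and 17.5% of the FPKM sum of the 4 libraries, more in both GFP libraries than in both mCherry libraries. At 136 bases each of its fragments adds much FPKM, so these are not its shares of fragments. Its sequence is that of the whole coding region of Tmsb10, the actin-sequestering protein thymosin beta 10, with 1 extra base. Tmsb10 itself, on chromosome 6, was listed at 329, 337, 258 and 311 FPKM. Both sequences, read from the GENCODE M21 transcripts, are shown because a reader cannot see from the gene names that the leading feature and a common fibroblast transcript are nearly the same. The capital marks the base that the alignment placed as extra in Gm3788.
Gm3788: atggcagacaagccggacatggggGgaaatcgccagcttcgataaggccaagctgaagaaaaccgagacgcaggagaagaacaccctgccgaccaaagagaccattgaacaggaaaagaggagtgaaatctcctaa
Tmsb10: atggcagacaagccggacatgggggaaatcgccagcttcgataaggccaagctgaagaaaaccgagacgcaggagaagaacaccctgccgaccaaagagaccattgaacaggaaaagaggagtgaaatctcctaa

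A ribosomal protein gave a similar picture. Rpl39-ps was listed at 22153, 19827, 15292 and 13890.5 FPKM, with its match Rpl39, which encodes a protein of the large ribosomal subunit, at 146, 91.9, 194 and 129 FPKM. The pseudogene, of 151 bases, stood far above the ribosomal protein gene in FPKM in all 4 libraries.

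All 37 genes of the mitochondrial chromosome, 13 of them protein coding, were listed at 0 in all 4 libraries, while copies of several of them in the nuclear genome were among the highest features. Gm29216, Gm28661, Gm10925 and Gm28437 lie side by side on chromosome 1 and matched mt-Co1, mt-Co2, mt-Atp6 and mt-Co3, which encode subunits of cytochrome oxidase and of the ATP synthase. Gm28661 was listed at 7176, 7807, 9071 and 10453 FPKM, and its 681 bases (chr1:24614885-24615565, minus strand) were identical to those of mt-Co2. The first 60 bases, which both genes share, are shown because the level printed for the nuclear copy cannot be told apart by sequence from that of the mitochondrial gene.
Gm28661 and mt-Co2: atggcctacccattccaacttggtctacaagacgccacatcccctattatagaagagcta
Gm29216 was listed at 12605, 12924, 12605 and 15176 FPKM and Gm10925 at 4669.6, 5499, 6523 and 6203 FPKM. No mitochondrial transcript level can be given from its own gene, and these rows are the ones that carry its sequence.

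Over the whole table, 1328 of the 1413 expressed pseudogenes matched the transcript of a protein-coding gene at 90% identity or more over 80% of their length or more, and those 1328 shared 709 distinct matches. Of them, 366 matched a cytosolic ribosomal protein gene and 10 a mitochondrial gene. For 475 of the 1328 the pseudogene had a higher mean FPKM than the gene it matched. In 36 cases the matched gene was listed at 0 in all 4 libraries: Rpl12, which encodes a protein of the large ribosomal subunit, was at 0 with Gm10275 at 2065, 1778, 1624 and 1825 FPKM. Pseudogenes took between 43.4% and 53.7% of the FPKM sum of a library and protein-coding genes between 40.5% and 54.7%. Some of the highest pseudogenes are very short, Gm3788 among them, so these are shares of FPKM and not of fragments. The summed FPKM of protein-coding genes was nearly level, from 400933 to 412410. Levels of ribosomal protein genes, of Tmsb10 and of other genes with near-identical copies are therefore uncertain as printed, since the counting may have split their fragments.

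**Figure D1:**
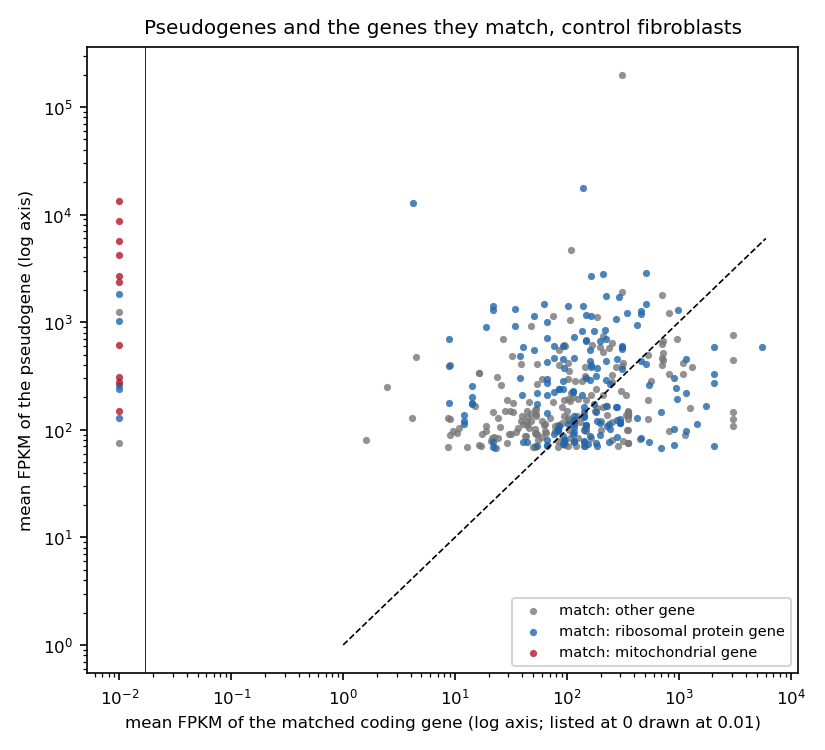
Mean FPKM over the 4 control libraries of 390 matched pseudogenes among the 400 highest (vertical log axis) against that of the coding gene each one matched (horizontal log axis, with 17 matches listed at 0 drawn at 0.01, left of the thin line). Points above the dashed line of equality, 259 of the 390, are pseudogenes listed above their match, and the highest point is Gm3788.

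Among protein-coding genes the top of the list was shared by protein synthesis, the cytoskeleton and the matrix. Rps9, a protein of the small ribosomal subunit, stood first at 5512 ± 879 FPKM, and Serpinh1, the endoplasmic reticulum chaperone that folds procollagen, stood second at 3167, 3185, 2754 and 3077 FPKM. Eef1a1, which brings aminoacyl-tRNA to the ribosome, was at 3028 ± 236 FPKM. Vim, the intermediate filament vimentin that typifies mesenchymal cells, was at 2729.7, 2980.1, 2756 and 2985 FPKM. Col1a1, the main chain of type I collagen, was at 2687, 2425, 3069 and 2951 FPKM. Only Rps9, Serpinh1, Eef1a1 and Vim stood above Col1a1. Bgn, the small proteoglycan biglycan, was at 2371 ± 55.03 FPKM, and Sparc, a matrix protein that binds collagen, at 2225 ± 33.97 FPKM. Both had a spread of under 3% of their mean. The 30 highest protein-coding genes also held the calcium-binding protein S100a6 at 2260.4 ± 252 FPKM, beta-actin (Actb) at 1929.8 ± 114 FPKM, tropomyosin (Tpm1) at 1602 ± 131 FPKM and galectin (Lgals1) at 1584 ± 153 FPKM. The iron store subunit Ftl1 was at 1297 ± 57.3 FPKM and the MHC class I light chain B2m at 1743 ± 317 FPKM. The 100 highest protein-coding genes took between 25.5% and 26.3% of all protein-coding FPKM. Cytosolic ribosomal protein genes took 7.61% to 8.50%, the cytoskeleton and adhesion list 4.68% to 4.82%, and matrix genes (collagens, glycoproteins, proteoglycans and laminins) 5.85% to 6.16%. The ribosomal share of 8.50% was that of EV mCherry replicate 1, and elsewhere it was 7.61% to 7.89%. In that library the ribosomal protein gene Rpl13a was at 4164 FPKM, against 448 to 692 FPKM elsewhere.

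**Figure D2:**
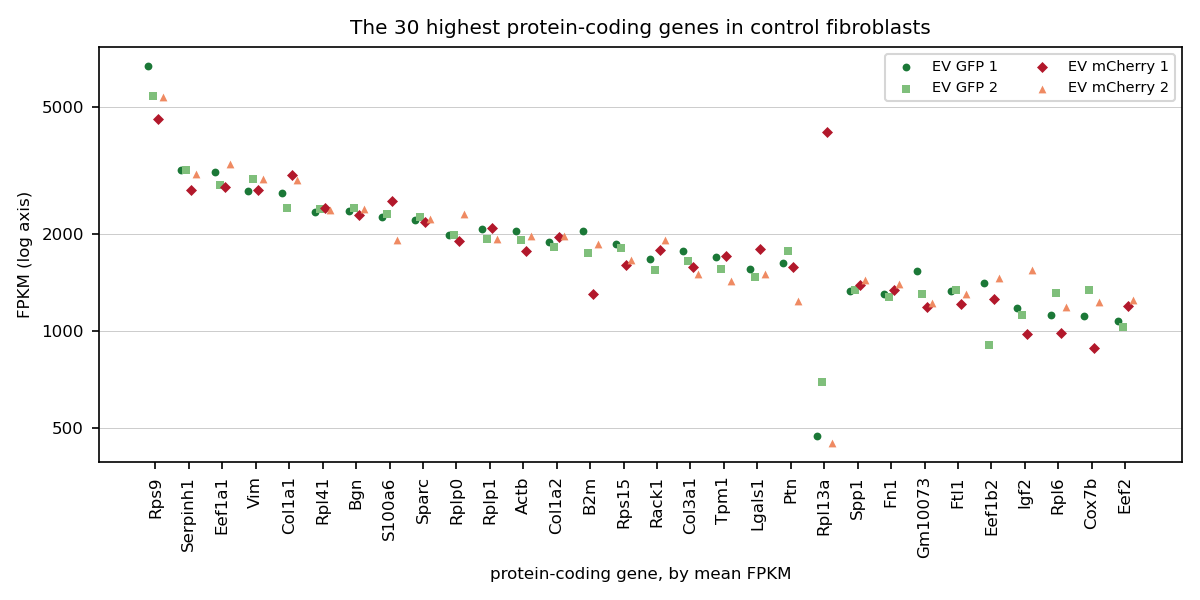
FPKM (log axis) of the 30 highest protein-coding genes, ordered by mean, with 1 point for each of the 4 control libraries. The points of a gene lie close together except for Rpl13a, which was 4164 in EV mCherry replicate 1 and 448 to 692 in the other 3.

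Long noncoding RNAs were led by H19, the maternally expressed imprinted transcript, at 3095, 3164, 3359 and 2862 FPKM. H19 shares its imprinted domain with Igf2, which encodes a fetal growth factor and was at 1183, 1124, 977 and 1549 FPKM. Meg3 and Rian, from the imprinted domain on chromosome 12, were at 635 ± 58.9 FPKM and 654 ± 29.8 FPKM. Gas5, a host of small nucleolar RNAs, was at 738 ± 194 FPKM, the nuclear speckle RNA Malat1 at 243 ± 27.7 FPKM and the paraspeckle RNA Neat1 at 50.6 ± 5.54 FPKM. All of these were within 1.5-fold between their lowest and highest library except Igf2 and Gas5. The second-highest row of the whole table was a small nucleolar RNA gene of 100 bases, Gm23455, which was listed at 72505 FPKM in EV GFP replicate 1 and at 0 in the other 3. Its rank thus came from 1 library.

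Fibrillar collagens, the ropes of the matrix, held the highest matrix chains. Of the 11 measured genes 10 were expressed, and their summed level was 7254 to 7930.3 FPKM. Col1a1 and Col1a2, whose products join in type I collagen, stood in a ratio of 1.45 ± 0.0988 (SD, n = 4). Col1a2 was at 1918 ± 72.8 FPKM. Col3a1, the chain of type III collagen, was at 1632 ± 115 FPKM. The type V chains Col5a2 and Col5a1, which set the width of type I fibrils, were at 685 ± 60.5 FPKM and 443 ± 13.4 FPKM. Among network collagens, Col6a1, Col6a2 and Col6a3 of the microfibrils were at 308 ± 22.7 FPKM, 284 ± 15.1 FPKM and 174 ± 5.56 FPKM, and the basement membrane chains Col4a1 and Col4a2 at 183 ± 8.25 FPKM and 166 ± 5.12 FPKM. Col12a1, which decorates fibrils under tension, was at 279.8 ± 29.8 FPKM. Of the cartilage chains, Col11a1 was at 127 ± 19.7 FPKM, while Col2a1 and Col10a1 were lower at 12.3 ± 0.7302 FPKM and 17.6 ± 1.28 FPKM. In the list of matrix cross-linking and collagen folding genes, 18 of the 18 measured were expressed. Lox, which cross-links collagen and elastin, was at 539 ± 16.4 FPKM, its relative Loxl1 at 183 ± 12.5 FPKM and the prolyl hydroxylase subunits P4hb and P4ha1 at 643 ± 20.9 FPKM and 110.3 ± 3.65 FPKM.

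Of the matrix glycoproteins 42 of the 51 measured were expressed. Spp1, the acidic phosphoprotein osteopontin, was at 1328, 1337, 1387 and 1438 FPKM. Fn1, fibronectin, was at 1300.1, 1276, 1339 and 1400.02 FPKM. For both genes the mCherry libraries stood just above the GFP libraries. Mgp, the inhibitor of calcification, was at 926 ± 39.1 FPKM, the procollagen peptidase enhancer Pcolce at 757 ± 49.1 FPKM and thrombospondin (Thbs1) at 711 ± 41.2 FPKM. The fibulin Fbln2 was at 484 ± 11.6 FPKM and the matricellular protein Cyr61 at 467 ± 53.1 FPKM. Efemp2, needed for elastic fibres, was listed at 534, 252, 227 and 565 FPKM, so that 1 library of each reporter stood above the other. Small leucine-rich proteoglycans were very unequal: Bgn exceeded its close relative Dcn, decorin, by 87.6-fold ± 12.3 (SD, n = 4), with Dcn at 24.3, 25.1, 32.3 and 28.2 FPKM. Ogn was at 187 ± 8.49 FPKM, Aspn at 95.6 ± 7.72 FPKM and Lum at 50.9 ± 4.66 FPKM. The basement membrane proteoglycan Hspg2 was at 227 ± 5.59 FPKM. Laminins, the sheet-forming proteins of basement membranes, were lower, led by Lamb1 at 104 ± 4.76 FPKM and Lamc1 at 73.4 ± 1.63 FPKM, with Lama5 and Lama4 as the leading alpha chains at 54.7 ± 3.36 FPKM and 49.9 ± 4.98 FPKM. Among proteases and their inhibitors, the pericellular collagenase Mmp14 was at 386 ± 25.4 FPKM, against Timp2 at 543 ± 51.1 FPKM and Timp1 at 225 ± 12.7 FPKM. The antiangiogenic serpin Serpinf1 was at 1143, 1090.1, 1066 and 1216 FPKM. The cysteine protease inhibitor Cst3 was listed at 441, 689, 444 and 682 FPKM, with replicate 2 of either reporter above replicate 1.

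Growth factors were led by Ptn, the heparin-binding pleiotrophin, at 1633, 1771, 1587 and 1240.3 FPKM, and by Igf2. Igf2 exceeded Igf1 by 80.8-fold ± 17.9 (SD, n = 4), and of the 6 IGF binding proteins 5 were expressed, led by Igfbp4 at 323 ± 45.6 FPKM and Igfbp5 at 114 ± 10.99 FPKM. Igfbp1, a liver product, was listed at 0, 0, 0.189 and 0 FPKM. In the TGF-beta and BMP list 14 of the 22 measured genes were expressed, a count that holds Bmp1, which is a protease and not a ligand. Bmp1, the procollagen peptidase, was at 88.7 ± 6.98 FPKM, Tgfb3 at 65.1 ± 3.54 FPKM and Bmp4 at 60.9 ± 2.67 FPKM. Tgfb3 exceeded Tgfb1 by 3.71-fold ± 0.383 (SD, n = 4). Fstl1, a secreted follistatin-like protein, was at 630.5, 617, 629 and 629 FPKM, above every ligand of the family. It was the steadiest gene of at least 100 FPKM. The latency proteins Ltbp3, Ltbp1 and Ltbp2, which belong to the matrix fibres that store latent TGF-beta, were at 88.8 ± 3.54 FPKM, 66.7 ± 2.96 FPKM and 62.5 ± 1.54 FPKM. Vegfa, the main angiogenic factor, was listed at 56.5, 59.5, 71.3 and 142 FPKM, highest in EV mCherry replicate 2. Its relatives Pdgfc, Pdgfa and Vegfb were at 20.6 ± 0.654 FPKM, 20.5 ± 4.603 FPKM and 20.2 ± 3.85 FPKM. FGF ligands were scarce, with 4 of the 22 measured expressed, and Fgf7, which acts on epithelium, the highest at 15.8 ± 3.31 FPKM.

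Of 19 Wnt ligands 5 were expressed, led by Wnt5a, a ligand of the beta-catenin-independent branch, at 27.6, 30.8, 27.4 and 30.9 FPKM, and Wnt16 at 15.1, 17.97, 20.02 and 19.9 FPKM. The secreted Wnt modulators were expressed beside them, with Dkk3 at 71.04 ± 3.29 FPKM, Sfrp2 at 23.1 ± 4.83 FPKM, Sfrp1 at 18.3 ± 1.86 FPKM and the Wnt enhancers Rspo2 and Rspo3 at 17.5 ± 1.34 FPKM and 14.1 ± 1.75 FPKM. None of the 3 hedgehog ligands reached 1 FPKM: Shh was listed at 0 in all 4 libraries, Ihh at 0, 0, 0 and 0.153 FPKM and Dhh at 0.292, 0.131, 0.115 and 0 FPKM. Receptors of that pathway were expressed. Gas1 and Cdon, which help to bind the ligand, were at 86.1 ± 7.03 FPKM and 31.03 ± 3.07 FPKM, the signal transducer Smo at 49.9, 48.3, 50.02 and 47.97 FPKM, and Ptch1, both receptor and target of the pathway, at 5.43, 5.64, 4.66 and 4.702 FPKM. The axon guidance ligands Sema3f, Slit2 and Slit3 were at 77.1 ± 2.09 FPKM, 57.1 ± 1.403 FPKM and 56.3 ± 8.85 FPKM.

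Of 34 chemokines 14 were expressed. Cxcl12, the stromal ligand that holds blood stem cells in their niche, was at 216, 214, 233 and 241 FPKM. The neutrophil attractant Cxcl5 was at 80.1, 75.3, 59.7 and 52.9 FPKM. Of the monocyte attractants, Ccl7 was at 24.96 ± 3.43 FPKM and Ccl2 at 20.03, 24.8, 12.6 and 13.1 FPKM. Cxcl12 was the highest chemokine in each library, and Cxcl5 and Ccl2 were lower in both mCherry libraries than in both GFP libraries. Csf1, the growth factor of macrophages, was at 153, 128, 124 and 137 FPKM. Mif was at 212 ± 14.8 FPKM, progranulin (Grn) at 164 ± 5.35 FPKM, and the cytokines Ctf1 and Clcf1 of the Il6 family at 33.2 ± 11.3 FPKM and 21.6 ± 2.48 FPKM. In the interleukin and cytokine list, 16 of 45 genes were listed at 0 in all 4 libraries. Of the peptide hormones and vasoactive peptides 5 of 27 were expressed, and Penk, the enkephalin precursor, led them at 176, 164, 169 and 176 FPKM. Adrenomedullin (Adm), which widens vessels, was at 36.2, 33.7, 23.3 and 24.6 FPKM and apelin (Apln) at 11.9 ± 0.6996 FPKM. Penk was level across the libraries and Adm was lower in both mCherry libraries. Ptx3, a soluble pattern recognition molecule, was at 60.2 ± 6.03 FPKM.

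Receptors and secreted products were expressed in like shares, 208 of 350 measured receptors and 268 of 465 secreted products. They differed at the top, where 16 receptors and 68 secreted products reached 100 FPKM in all 4 libraries. Receptor tyrosine kinases were led by Fgfr1 at 145, 139, 135 and 157 FPKM and by Axl, the receptor of Gas6, at 108, 107, 110.1 and 106 FPKM. Gas6 itself was at 52.3 ± 10.5 FPKM. The PDGF receptors that mark fibroblasts were both expressed. Pdgfrb was at 63.9, 62.98, 65.7 and 68.2 FPKM and Pdgfra at 25.4, 22.4, 25.8 and 29.3 FPKM. Pdgfrb was the higher in each library, by a ratio of 2.55 ± 0.1998 (SD, n = 4). The collagen receptors Ddr2 and Ddr1 were at 61.9 ± 2.57 FPKM and 24.5 ± 1.02 FPKM. Wnt-binding receptors Ptk7, Ryk and Ror2 were at 86.9 ± 8.65 FPKM, 72.6 ± 2.04 FPKM and 24.5 ± 1.07 FPKM. Of the integrins 17 of the 26 measured were expressed. The shared beta chain Itgb1 was at 252, 253, 280.3 and 281 FPKM, the fibronectin receptor chain Itga5 at 106 ± 2.38 FPKM, the vitronectin receptor chain Itgav at 42.97 ± 1.87 FPKM and the fibrillar collagen receptor chain Itga11 at 39.3 ± 4.95 FPKM. Itgb5 was listed at 84.1, 89.5, 90.5 and 143 FPKM, with EV mCherry replicate 2 apart from the other 3.

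Among TGF-beta family receptors Tgfbr2 stood highest at 64.2, 62.8, 64.7 and 69.5 FPKM, above Tgfbr1 at 5.24, 10.6, 8.8004 and 8.39 FPKM. The frizzled receptors were led by Fzd2 at 54.4 ± 4.25 FPKM, with Fzd1 and Fzd7 at 19.6 ± 0.715 FPKM and 17.1 ± 1.12 FPKM and the coreceptors Lrp5 and Lrp6 at 20.8 ± 2.22 FPKM and 16.6 ± 1.14 FPKM. Notch2 and Notch1 were at 17.97 ± 0.838 FPKM and 12.6 ± 0.718 FPKM, and of the Notch ligands only Jag1 was expressed, at 15.8 ± 2.31 FPKM. Of the cytokine and interferon receptors 22 of the 35 measured were expressed. Il6st, the signal chain shared by the Il6 family, was at 159.8, 144, 167 and 175 FPKM and the oncostatin M receptor Osmr at 46.6 ± 3.01 FPKM. Il1rl1, the receptor of Il33, was at 106, 137, 82.1 and 76.4 FPKM, lower in both mCherry libraries. Interferon receptors Ifnar2 and Ifnar1 were at 42.9 ± 3.35 FPKM and 30.02 ± 1.17 FPKM, and the death-domain receptor Tnfrsf1a at 109 ± 14.4 FPKM. The endocytic receptors Lrp1 and Mrc2, which take up proteases and collagen, were at 199 ± 12.9 FPKM and 128 ± 8.603 FPKM.

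Of 60 G protein-coupled receptors 27 were expressed. Adgra2, an adhesion receptor, was at 114 ± 5.63 FPKM, the thrombin receptor F2r at 69.6 ± 2.52 FPKM, the lipid receptors S1pr3 and Lpar1 at 44.8 ± 6.17 FPKM and 34.6 ± 1.86 FPKM and the Cxcl12-scavenging receptor Ackr3 at 24.7 ± 0.815 FPKM. The angiotensin receptor Agtr2 was listed at 46.97, 8.25, 9.56 and 38.9 FPKM, high in 1 library of each reporter and low in the other. Guidance receptors were led by Plxnb2 at 114 ± 3.67 FPKM and by Nrp2 and Nrp1 at 72.4 ± 5.46 FPKM and 46.5 ± 0.911 FPKM. Nuclear receptors were led by Rarg, a retinoic acid receptor of connective tissue, at 84.8 ± 3.24 FPKM, the thyroid hormone receptor Thra at 61.9 ± 13.5 FPKM and Nr4a1, an immediate early receptor, at 53.3, 34.97, 67.1 and 61.1 FPKM. Of 20 genes listed as surface markers of fibroblasts, all but 1 were expressed, a count that holds Cav1, which is not exposed at the cell surface. Caveolin (Cav1) was at 462 ± 26.8 FPKM, Cd81 at 378 ± 39.6 FPKM, the fibroblast antigen Thy1 at 253, 217, 288 and 306 FPKM, Cd248 at 137 ± 7.296 FPKM and Ly6a, known as Sca-1, at 129.8, 135, 102 and 113 FPKM. Thy1 was higher and Ly6a lower in both mCherry libraries.

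Of 325 measured transcription factors 226 were expressed and 40 were listed at 0 in all 4 libraries. Of the factors of mesenchymal identity 39 of the 46 measured were expressed. Nfix was at 178 ± 14.1 FPKM. The limb mesenchyme homeobox factor Prrx1 was at 158, 164, 175 and 169 FPKM and its relative Prrx2 at 135, 139.8, 122 and 118 FPKM. Prrx1 was higher and Prrx2 lower in both mCherry libraries, each by a small margin. Osr1 was at 57.9 ± 1.68 FPKM, Tbx15 at 48.5 ± 4.14 FPKM and Twist1 at 45.3 ± 1.899 FPKM. Beta-catenin (Ctnnb1), which is both a junction protein and a Wnt effector, was at 213, 229, 227 and 232 FPKM. Yap1, the coactivator whose vector the other libraries of the series carried, was at 88.5, 88.4, 93.2 and 92.2 FPKM from its own gene in the control cells. Its level was nearly even, with its partner Tead2 at 49.7 ± 5.87 FPKM. The stress-response factors Atf4 and Atf5 were at 234 ± 15.3 FPKM and 201 ± 22.3 FPKM, Nfe2l1 at 149 ± 9.23 FPKM and Hif1a at 75.2 ± 2.93 FPKM. The chromatin proteins Hmga1 and Hmga2, which are high in embryonic and proliferating cells, were lower in both mCherry libraries. Hmga1 was at 250.3, 271, 176 and 179 FPKM and Hmga2 at 70.7, 76.9, 63.5 and 64.9 FPKM. The differentiation inhibitor Id3 was at 189 ± 12.5 FPKM.

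Immediate early genes, which cells switch on within minutes of serum, stress or handling, held the 2 highest transcription factor transcripts, Fos and Egr1. Fos, a subunit of AP-1, was listed at 975, 738, 469 and 466 FPKM. Egr1, a zinc finger factor, was at 439, 356, 253 and 259 FPKM. The other AP-1 subunits Fosb and Jun were at 321, 193, 169.5 and 150.4 FPKM and at 173, 126, 96.9 and 101 FPKM. Ier2 was at 60.9, 48.8, 39.3 and 41.9 FPKM. For each of these 5 genes both GFP libraries stood above both mCherry libraries, and EV GFP replicate 1 was the highest. In this list of AP-1 and immediate early factors, 13 of the 16 genes with a mean of at least 1 FPKM were lower in both mCherry libraries than in both GFP libraries and 0 were higher, against 2617 of the 13262 genes tested that were lower (19.7%) and 2876 that were higher (21.7%). Nr4a1, the immediate early receptor given above, was counted with the nuclear receptors and went the other way, higher in both mCherry libraries. None of these differences passed the test across all genes, limma with Benjamini-Hochberg adjustment over 13262 genes. For Fos the difference was -0.86 ± 0.15 (SE) on the log2(FPKM + 0.5) scale, with an adjusted p of 0.385 from limma. The share of Gm3788 and the macrophage markers also separated the reporters, and their part in this difference was not tested.

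HOX transcripts were weighted to the 5' end of the HOXD and HOXA clusters, the genes that pattern the far end of limbs and the tail end of the trunk. Hoxd13 was the highest at 58.2, 66.7, 60.7 and 52.9 FPKM, followed by Hoxa10 at 36.3, 36.1, 29.97 and 22.9 FPKM. Hoxa9, Hoxa11 and Hoxa13 were at 14.2 ± 2.17 FPKM, 14.1 ± 0.746 FPKM and 12.7 ± 3.79 FPKM, and Hoxd12 and Hoxd10 at 12.01 ± 1.71 FPKM and 11.2 ± 0.347 FPKM. Hoxd13 exceeded Hoxa13 by 5.11-fold ± 1.96 (SD, n = 4), with Hoxa13 at 10.2, 8.77, 15.7 and 16.2 FPKM. In the HOXB cluster Hoxb9 was highest at 9.12 ± 1.34 FPKM and in the HOXC cluster Hoxc8 and Hoxc6, at 7.996 ± 0.989 FPKM and 7.84 ± 2.27 FPKM, which did not differ beyond their spread. No gene of either cluster reached 10 FPKM in all 4 libraries. Towards the 3' ends, Hoxa5, Hoxa3 and Hoxb3 were at 4.24 ± 0.902 FPKM, 4.65 ± 0.787 FPKM and 4.34 ± 0.928 FPKM. Hoxb1 and Hoxa4 were listed at 0 in all 4 libraries, and Hoxd3 and Hoxd4 had a mean under 1 FPKM. Both limb-type T-box genes were expressed. Tbx4, the hindlimb gene, was at 18.7, 13.1, 17.7 and 16.6 FPKM and Tbx5, the forelimb gene, at 8.88, 5.51, 5.61 and 6.69 FPKM. Tbx4 was the higher in each library, by a ratio of 2.53 ± 0.448 (SD, n = 4). The libraries did not separate by reporter for Hoxd13, Tbx4 or Tbx5. For Hoxa10 both mCherry libraries stood below both GFP libraries, and for Hoxa13 above them. In genes with a mean of at least 1 FPKM, 2 of 9 HOXA genes were higher in both mCherry libraries and 1 lower. In HOXB these counts were 3 of 7 and 0, in HOXC 2 of 5 and 1, and in HOXD 1 of 6 and 0. Over all 13262 genes tested, 21.7% were higher and 19.7% lower.

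**Figure D3:**
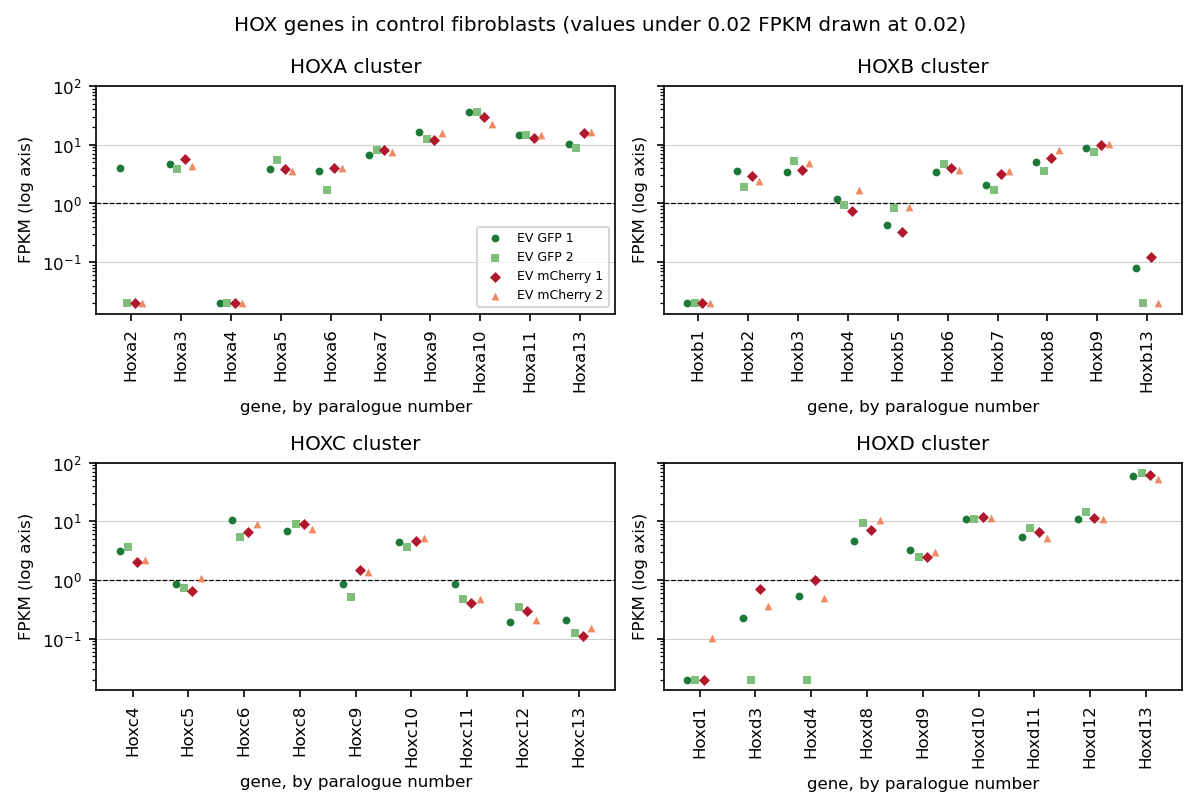
FPKM (log axis) of genes of the 4 HOX clusters, ordered by paralogue number, with 1 point per control library, a dashed line at 1 FPKM and values under 0.02 drawn at 0.02. Hoxd13 and Hoxa10 stand highest, and levels in the HOXC cluster fall off towards Hoxc13.

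Factors that define other lineages were mostly not expressed: 18 of 34 were listed at 0 in all 4 libraries and 7 were expressed. The highest were Runx1 at 11.2 ± 1.99 FPKM and Runx2, the bone and cartilage factor, at 9.76 ± 2.28 FPKM. Tfap2a, a factor of ectoderm and neural crest, was at 7.22 ± 0.921 FPKM, Sox9, the cartilage factor, at 3.53 ± 0.473 FPKM and Sox2 at 1.98 ± 0.5802 FPKM. Myod1, Myf5, Myog and Pax7 of skeletal muscle, Pou5f1 of pluripotent cells, Hnf4a of liver and Neurod1 of neurons were listed at 0 in all 4 libraries.

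All 18 fibroblast markers were expressed, with a summed level of 11877 to 12712 FPKM, and no library lacked any of them. The lowest of them was Fap, the protease of activated fibroblasts, at 3.93, 4.46, 4.28 and 5.01 FPKM. Contractile markers were expressed in 11 of 12 cases. Smooth muscle actin (Acta2) was at 904, 903, 955 and 975 FPKM, Tagln at 602, 509, 539.7 and 509 FPKM, Tpm2 at 695 ± 45.9 FPKM and Myl9 at 459 ± 19.6 FPKM, while the smooth muscle myosin Myh11 was at 0.953, 0.833, 1.94 and 1.297 FPKM. In these bulk libraries fewer cells of a type and less RNA per cell cannot be told apart.

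Macrophage markers were expressed in 17 of 23 cases, with a summed level of 341 and 363 FPKM in the GFP libraries and 445 and 483 in the mCherry libraries. Lyz2, lysozyme, was at 137, 139.8, 163 and 194 FPKM, and C1qa, a chain of the first component of complement, which macrophages make, was at 34.4, 43.2, 53.4 and 62.6 FPKM. Both stood higher in both mCherry libraries, as did C1qc, at 33.8, 43.7, 49.2 and 52.4 FPKM. The receptor Csf1r was at 4.43, 5.39, 7.52 and 9.81 FPKM and the lineage factor Spi1 at 1.03, 1.01, 2.66 and 2.55 FPKM. Defining genes thus stood above 0 in every library, although the pan-leukocyte gene Ptprc was at 1.2996, 0.448, 0.509 and 0.591 FPKM and Cd163 was listed at 0. Of 19 macrophage markers with a mean of at least 1 FPKM, 15 were higher in both mCherry libraries than in both GFP libraries and 0 were lower, against 21.7% and 19.7% of all genes tested. The lean was not particular to macrophage markers. Of 18 fibroblast markers 11 were higher and 2 lower, and of 12 contractile markers 5 were higher and 0 lower. No macrophage marker passed the test across all genes, and Csf1r had an adjusted p of 0.54 from limma. Csf1 exceeded its receptor Csf1r by 22.2-fold ± 9.27 (SD, n = 4).

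Markers of other blood lineages were few. None of 10 lymphocyte markers and none of 12 mast cell and granulocyte markers was expressed, and all 5 globins (Hbb-bs, Hbb-bt, Hbb-y, Hba-a1 and Hba-a2) were listed at 0 in all 4 libraries. In that erythroid and megakaryocyte list 1 of 12 genes was expressed, the platelet integrin chain Itga2b at 4.89, 5.04, 5.74 and 4.27 FPKM, and the platelet factor Pf4 was at 0, 3.72, 4.63 and 0.4504 FPKM. Endothelial markers were split: Erg was at 16.8, 15.4, 19.1 and 17.7 FPKM and Flt1 at 9.39, 5.27, 7.94 and 11.6 FPKM, while Tie1 and Cldn5 were listed at 0, Cdh5 was at 0.0415, 0.0744, 0 and 0.0458 FPKM and Pecam1 at 0.387, 0, 0.5201 and 0 FPKM. Epithelial markers were Krt19 at 9.77, 16.6, 12.1 and 6.197 FPKM and Krt18 at 3.17, 4.26, 3.54 and 3.05 FPKM, with Epcam listed at 0 and Cdh1 at 0, 0.0667, 0 and 0.174 FPKM. Krt19 stands also in the mesothelial list, where Msln was at 10.97, 10.2, 7.57 and 8.09 FPKM, Upk3b at 1.28, 2.63, 2.62 and 3.45 FPKM and Wt1 at 1.35, 0.933, 2.05 and 1.72 FPKM. Cartilage markers were expressed in 8 of 12 cases, with Comp at 4.74 ± 1.28 FPKM and Acan at 1.99 ± 0.436 FPKM. Col11a1, whose level is given above, led that list with 73.8% of its summed level. In the bone list Spp1 and Runx2 alone were expressed, and Bglap, Ibsp and Sost were listed at 0. In the adipocyte list 5 of 12 genes were expressed, led by Scd1, a fatty acid desaturase, at 38.6, 37.1, 38.5 and 40.2 FPKM. Fabp4 was at 10.6 ± 3.6999 FPKM and Lpl at 5.74 ± 2.17 FPKM, with Adipoq and Plin1 listed at 0. Glial genes were low and uneven: Ngfr was at 4.997, 4.09, 1.15 and 1.07 FPKM, and Sox10 at 1.32, 0.675, 0 and 0.0692 FPKM. In the neuron list 3 of 11 genes were expressed, the microtubule proteins Map2 and Stmn2 at 13.1 ± 1.22 FPKM and 7.49 ± 0.908 FPKM and the growth cone protein Gap43 at 6.49 ± 0.522 FPKM, with Snap25 and Dcx listed at 0. In the melanocyte list Mitf was at 2.66, 2.59, 2.34 and 3.06 FPKM and the other 5 genes, among them Tyr and Pmel, were listed at 0. No gene of the heart and liver lists was expressed in all 4 libraries, and the highest were Tnni3 at 2.68, 1.204, 0 and 1.21 FPKM and Apoa2 at 2.03, 1.14, 0.968 and 2.71 FPKM.

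**Figure D4:**
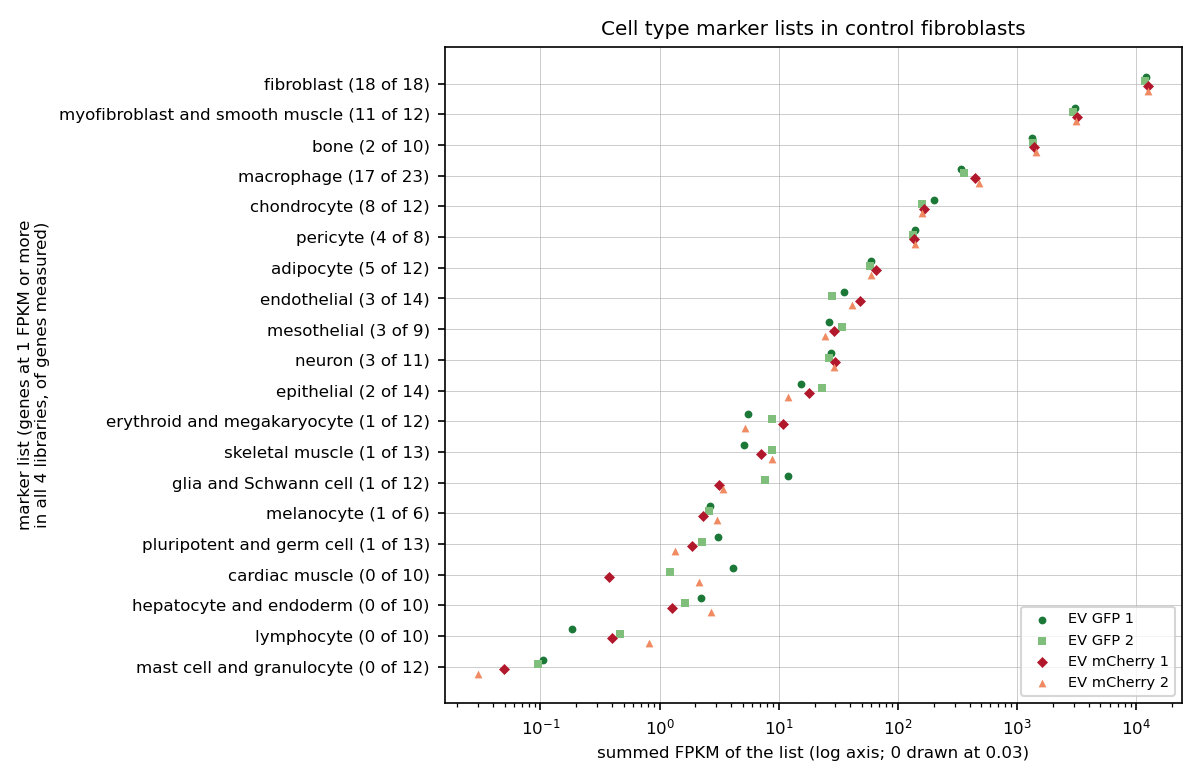
Summed FPKM (log axis, 0 drawn at 0.03) of each cell type marker list, with 1 point per control library. Brackets give how many genes of a list were at 1 FPKM or more in all 4 libraries of how many measured, from 18 of 18 for fibroblasts to 0 of 12 for mast cells and granulocytes.

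Genes of cell division and of cell cycle arrest were expressed together. All 27 proliferation genes were expressed, with Cdk1, the mitotic kinase, at 97.1, 83.6, 79.8 and 87.8 FPKM, and the D-type cyclins Ccnd3, Ccnd2 and Ccnd1 at 130.01 ± 11.6 FPKM, 92.1 ± 2.88 FPKM and 78.5 ± 4.76 FPKM. Of 17 genes listed as inhibitors of the cycle or as tied to senescence 16 were expressed, all but Il6. The list also holds Lmnb1 and Mdm2, which do not inhibit the cycle, so the count does not measure arrest. Cdkn1a, a target of p53, was at 113, 121, 119 and 100.5 FPKM, Cdkn2b at 45.9, 50.3, 44.2 and 52.5 FPKM and Cdkn2a at 45.5, 47.3, 35.96 and 43.8 FPKM. Cdkn1a exceeded Cdkn2a by 2.66-fold ± 0.444 (SD, n = 4). Glycolytic genes were expressed in 18 of 19 cases, led by Aldoa at 801, 834, 680.4 and 692 FPKM and Pkm at 568 ± 51.02 FPKM, and both mCherry libraries stood below both GFP libraries for Aldoa. The X-inactivation RNA Xist was at 20.7, 24.002, 22.8 and 22.96 FPKM and the Y-linked genes Eif2s3y, Ddx3y, Kdm5d and Uty at 13.1 ± 1.24 FPKM, 12.8 ± 1.31 FPKM, 6.05 ± 0.267 FPKM and 3.72 ± 0.585 FPKM. Each library thus held both Xist and Y-linked transcripts.

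The 4 libraries differed little for most genes. Over the 13262 genes with a mean of at least 1 FPKM the median SD of log2(FPKM + 0.5) was 0.19, and over the 11199 protein-coding genes among them it was 0.18, a coefficient of variation of 13.2%. It was smaller at higher levels, 0.33 for protein-coding genes of 1 to 3 FPKM and 0.11 above 300 FPKM. Correlations across protein-coding genes, which are not independent replicates, lay between 0.937 and 0.949 for the 6 pairs of libraries. Without genes listed at 0 in some library they lay between 0.964 and 0.972. The steadiest genes of at least 100 FPKM were led by Fstl1, the lysosomal activator Psap at 390.3, 387, 385 and 380.4 FPKM, Rpl41 at 2357, 2399, 2419 and 2376 FPKM and Angptl2 at 114, 115, 118 and 116 FPKM. The lowest and highest library of each were within 3% of one another.

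The widest differences were values of 0. Of the 11199 protein-coding genes, 229 were listed at 0 in 1 to 3 of the libraries, 94 of them with at least 10 FPKM in another. Romo1, a mitochondrial membrane protein, was listed at 633, 0, 0 and 0 FPKM, and Atp5o, a subunit of the ATP synthase, at 0, 0, 169 and 144 FPKM. Gclm, which makes glutathione, was listed at 66.6, 62.8, 0 and 0 FPKM. Romo1 went from a high level to 0 between libraries of 1 group, and an exact 0 in this unit can be a failed estimate, which was not tested. Among genes never listed at 0, the mitochondrial glutamate carrier Slc25a22 was at 667, 15.6, 23.3 and 25.4 FPKM and the lysosomal enzyme Manba at 62.4, 6.18, 10.1 and 92.1 FPKM. Rpl13a, often taken as a reference gene, was at 470.5, 692, 4164 and 448 FPKM, and Erlin2 at 13.03, 99.7, 12.2 and 12.3 FPKM. In Slc25a22, Rpl13a and Erlin2 a single library stood apart, while Manba was high in 1 library of each reporter. The other reference genes were steadier than Rpl13a, but not all were level. Tubb5 was at 476, 515, 508 and 525 FPKM and Actg1 at 808, 848, 755 and 839 FPKM. Gapdh, at 325, 348, 383 and 360.3 FPKM, was higher in both mCherry libraries. Ywhaz was at 116, 143, 96.2 and 82.3 FPKM and Pgk1 at 78.6, 73.3, 49.3 and 53.3 FPKM. Both were lower in both mCherry libraries. B2m was at 2045, 1756, 1303 and 1869 FPKM.

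**Figure D5:**
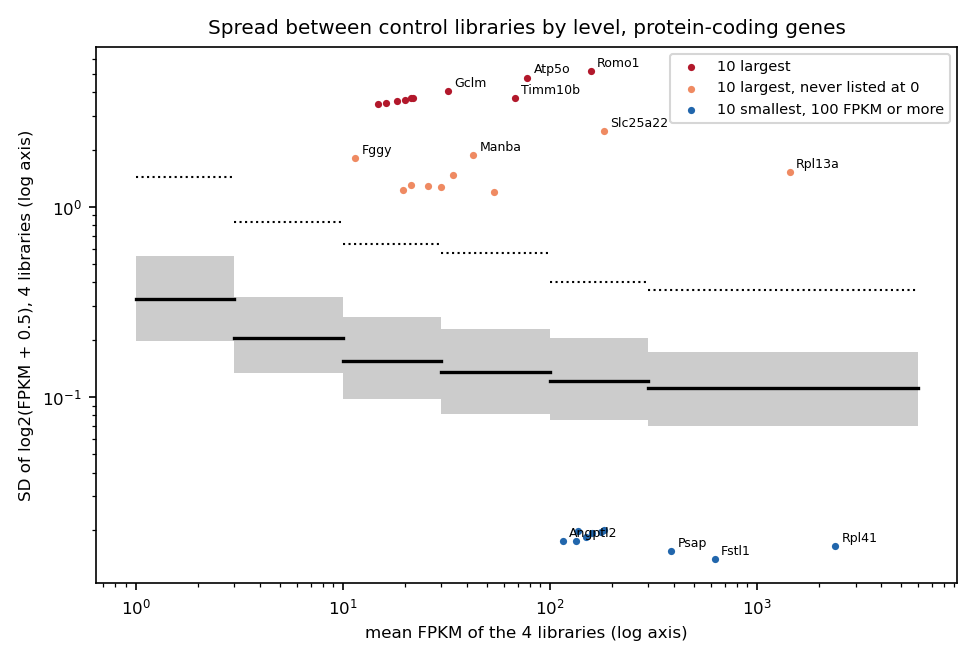
SD of log2(FPKM + 0.5) over the 4 control libraries against mean FPKM (both log axes) for protein-coding genes. Black lines are medians, grey boxes the quartiles and dotted lines the 95th percentile in 6 bins of level, and coloured points are the genes with the largest and smallest spread.

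The reporter is the 1 labelled factor that differs among the control libraries. Of 13262 genes tested with limma, 7 were called higher and 8 lower in EV mCherry than in EV GFP at an adjusted p of 0.05, together 0.113% of the genes (0.0528% higher and 0.0603% lower), and 1149 had an unadjusted p under 0.05. All 15 called genes were listed at 0 in both libraries of 1 reporter. Atp5o and Gclm, whose values are given above, had an adjusted p of 0.00662 each. Jmjd6, a hydroxylase of the nucleus, was listed at 0, 0, 41.8 and 43.4 FPKM with an adjusted p of 0.00937, and Galt, an enzyme of galactose use, at 15.4, 16.02, 0 and 0 FPKM with an adjusted p of 0.0279. Without genes listed at 0 in any library, 0 of 12792 genes were called and 1167 had an unadjusted p under 0.05. The smallest p among genes with values in all 4 libraries was that of Snrpd3, a spliceosome protein, at 41.03, 43.9, 11.2 and 12.2 FPKM and an adjusted p of 0.0513. Leaving out any 1 library ended every call, with 885 to 1161 genes then at an unadjusted p under 0.05.

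The authors' deposited table holds a second value for control cells, 1 value per gene for an arm named FP, with no error of its own and no statement of which libraries it pools. Its ratio to the mean of the 4 libraries had a median of 1.14 over 13261 genes and of 0.569 over pseudogenes. Of the 13261 genes, 1788 were over 1.5-fold higher in the authors' deposited table and 1283 over 1.5-fold lower, of which 335 were at 0. Dync1li2, a dynein light intermediate chain, was 673 FPKM in the authors' deposited table, against 39.5, 66.8, 27.7 and 37.3 FPKM in the libraries. Huwe1, a ubiquitin ligase, was 245 FPKM in the authors' deposited table, against 36.3, 39.4, 37.2 and 40.1 FPKM. In the other direction Rps6, a ribosomal protein, was 1.72 FPKM in the authors' deposited table, against 187, 198, 205 and 199 FPKM. Of the 30 highest protein-coding genes by the mean of the libraries, 27 were also among the 30 highest by the authors' deposited table. For the genes over 1.5-fold apart, the baseline level depends on which deposited value is read, and the per-library values are the ones used above.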

How the data were processed

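RNA of 8 samples was sequenced after a stranded mRNA kit, per the labels, and the 4 control libraries were used. Per the submitters' processing notes, reads were handled with TopHat and Cufflinks on the mm10 build. The authors deposited FPKM values per gene and library, and a second table of FPKM per arm, whose pooling of libraries is not stated. Versions, annotation release and scaling between libraries are not stated in the sources used here.

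From these values 114 rows of 49 repeated identifiers were left out, which left 48527 genes. Names and biotypes came from GENCODE M21 (GRCm38), which held 48169 of them. The members and gene lists were chosen with earlier results of these data known. Expressed pseudogenes were aligned to coding transcripts with BLAST 2.17.0, and sequences were read from the same transcripts. Relative depth came from the ratio between libraries of the lowest FPKM values, under 0.3, at whole numbers up to 4 with a tolerance of 2%. It rested on genes of which 60.6% to 64.5% were at such a ratio, so whole reads were not recovered.

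Reporters were compared with limma 3.58.1 in R 4.3.3 on log2(FPKM + 0.5), with a variance trend and Benjamini-Hochberg adjustment over genes with a mean of at least 1 FPKM. A fold on that scale understates changes of low genes. Alternatives were other pseudocounts, filters and scalings, no trend, a replicate block, and each library left out. Tables and plots were made in Python 3.11.15 with pandas 2.3.3 and matplotlib 3.10.9.

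Genes were named by level (the 30 highest protein-coding genes, the 5 highest others, and up to 8 of each list with defining members and any marker), by spread (the 10 largest and smallest), by p of the reporter comparison (up to 10 each way) and by ratio to the pooled value (10 each way). Gm28661, Gm10925, Gm28437, Gm10275, H19, Meg3, Rian, Gas5, Malat1, Neat1 and the matched genes were named after their values were seen.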

Additional observations from a re-analysis of the deposited data

Results flagged for a closer look

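Of the 330 genes named in the text, 23 had 1 library set apart from the other 3 by a gap to the nearest that, over the whole range, was above Dixon's 95% critical value for 4 samples. Chance flags about 1 in 20 groups, but several of the genes, among them Romo1, Slc25a22, Rpl13a, Erlin2 and Fstl1, were named for their large or small spread, so that the count cannot be read against that rate. There were 6 cases in EV GFP replicate 1, 7 in EV GFP replicate 2, 5 in EV mCherry replicate 1 and 5 in EV mCherry replicate 2.

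Several of these were large. Gm23455 was listed at 72505 FPKM in EV GFP replicate 1 and at 0 in the others, and Romo1 at 633 FPKM in EV GFP replicate 1 and at 0 in the others. Slc25a22 was at 667 FPKM in EV GFP replicate 1, against 15.6 to 25.4 FPKM. Rpl13a was at 4164 FPKM in EV mCherry replicate 1, against 448 to 692 FPKM. Erlin2 was at 99.7 FPKM in EV GFP replicate 2, against 12.2 to 13.03 FPKM. Itgb5 was at 143 FPKM in EV mCherry replicate 2, against 84.1 to 90.5 FPKM, and Ptprc, the pan-leukocyte gene, at 1.2996 FPKM in EV GFP replicate 1, against 0.448 to 0.591 FPKM.

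The other cases were smaller or near 0. In EV GFP replicate 1, Mgp was at 984 FPKM (898 to 911 in the others) and P4hb at 674 FPKM (628 to 636). In EV GFP replicate 2, Ccl7 was at 30.08 FPKM (22.8 to 23.7), Hoxa5 at 5.58 FPKM (3.63 to 3.87) and Hoxd12 at 14.5 FPKM (10.99 to 11.4). In the same library Timp1 was at 244 FPKM (217 to 221), Thra was low at 41.8 FPKM (67.004 to 70.998) and Fstl1 low at 617 FPKM (629 to 630.5). In EV mCherry replicate 1, Jag1 was at 19.2 FPKM (14.4 to 14.99), Tpm2 at 764 FPKM (668 to 681), Igfbp1 at 0.189 FPKM (0 in the others) and Hoxa11 low at 13.01 FPKM (14.4 to 14.6). In EV mCherry replicate 2, Gm29216 was at 15176 FPKM (12605 to 12924), Ltbp2 at 64.8 FPKM (61.5 to 62.1) and Ihh at 0.153 FPKM (0 in the others), and Tnfrsf1a was low at 87.7 FPKM (114 to 118).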

How the results depend on the processing

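The count of 15 genes called between the reporters was 8 with a pseudocount of 0.1, 6 with no filter on level, 5 with a filter at a mean of 5 FPKM and 23 with no variance trend in limma. It was 12 with a pseudocount of 1 and 17 with median-ratio scaling. With genes listed at 0 left out it was 0, and 1167 genes had an unadjusted p under 0.05. With any 1 library left out it was 0 to 0, with 885 to 1161 genes at an unadjusted p under 0.05, where the lone library of an arm is assumed to vary like the other arm. With the replicate number as a block it was 0, with 885 at an unadjusted p under 0.05. Libraries of the same number did not deviate together (correlation -0.0139 across genes). With a single difference per reporter, that value cannot show whether they were made together, which the labels do not state. Over the 10 genes followed singly, 45 values lost their call, 2 gained one (Snrpd3 and Kat2b, with median-ratio scaling, each at an adjusted p of 0.0477 from limma), 66 held and 0 reversed. The causes were not tested.

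The median spread of 0.19 was 0.20 with a pseudocount of 0.1, 0.18 with a pseudocount of 1, 0.16 with a filter at a mean of 5 FPKM, and 0.17 to 0.18 with 1 library left out. The ratio of the authors' deposited table to the libraries, 1.14 in median, was 1.15 against the median of the libraries and 1.14 with any 1 library left out. Divided by their median, a step chosen after seeing the data, 2557 in place of 3071 ratios lay beyond 1.5-fold. The count of expressed genes kept within 1.5 times of 12062 in each setting tried. With 2 libraries against 2, an exact permutation test of 1 gene cannot go below a two-sided p of 0.333. Absolute depth is unknown, so no interval could be set on a low value, and single values of 0 and levels of genes with near-identical copies are the least certain.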

Other observations

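Glycolysis, receptor tyrosine kinases and chromatin HMG factors were singled out here after the values of the lists were seen. In the glycolysis list, 10 of 19 genes were lower in both mCherry libraries than in both GFP libraries and 3 were higher, against 19.7% lower and 21.7% higher over all 13262 genes tested. Ldha, which makes lactate from pyruvate, was listed at 511, 518, 432 and 454 FPKM, and Pgk1, which makes ATP in the pathway, at 78.6, 73.3, 49.3 and 53.3 FPKM. Gapdh went the other way, as given in the report. Receptor tyrosine kinases had 12 of 25 genes higher in both mCherry libraries and 1 lower. The margins were small, with Ptk7 at 87.1, 74.7, 91.9 and 94.1 FPKM and Ddr2 at 58.7, 61.5, 64.9 and 62.5 FPKM. Hmgb1, a DNA-bending protein of chromatin, was listed at 109.9, 116, 78.9 and 75.1 FPKM, lower in both mCherry libraries like Hmga1. In these lists no gene passed the limma test across all genes, and the differences were read from libraries in which macrophage marker sums, relative depth and the Gm3788 share also differed. The part of these in the counts was not tested.

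Proteins of the cytoskeleton and of adhesion, the stress fibres and their anchors, were all expressed, 41 of 41, and 35 reached 100 FPKM in all 4 libraries. The membrane scaffold Anxa2 was at 906 ± 17.4 FPKM, the actin monomer binders Pfn1 and Tmsb4x at 614 ± 43.96 FPKM and 668 ± 43.4 FPKM. Complement genes outside the C1q chains included C1ra and C1s1, the proteases of the first component, at 15.9 ± 2.12 FPKM and 14.3 ± 3.45 FPKM, and clusterin (Clu) at 34.5 ± 6.98 FPKM. The ephrin receptors were led by Ephb4 and Ephb2, at 32.6 ± 2.74 FPKM and 29.995 ± 1.03 FPKM. In the pericyte list, Pdgfrb, shared with fibroblasts, stood first, followed by Cspg4 and Mcam at 32.96 ± 2.53 FPKM and 28.4 ± 0.984 FPKM, with Rgs5 at 0.485, 0.652, 0.513 and 0.803 FPKM.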
